A study of Mus musculus with 32 samples.

Results

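The 16 late 2-cell mouse embryos injected with a scrambled oligonucleotide were examined on their own, out of 32 embryos in the series. They were chosen by their label, Ctrl_LNA, with no measured value used, and each library is 1 embryo. All 32 embryos were wild type and were injected with mRNA of H3.3-GFP, a histone H3.3 carrying green fluorescent protein, together with an oligonucleotide with locked nucleic acid (LNA) bases. The oligonucleotide was a scramble in the controls and, in the remaining 16 embryos (Val_LNA), an antisense to tRFValCAC, which is cut from a tRNA for valine. Only embryos that showed green fluorescence were cultured to the late 2-cell stage and lysed singly at 28 h after in vitro fertilization (IVF). No uninjected embryos are among the samples, so the levels below are those of injected, fluorescent embryos. The labels give neither the strain nor the age of the parents, and do not say whether the embryos came from several litters or injection days. The spread between embryos is therefore that of these 16 libraries. Library numbers fall into the runs 31 to 38 and 43 to 50, which the labels do not describe further.

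The mouse zygote starts life with messenger RNA made in the growing oocyte. During the 2-cell stage most of that store is deadenylated and degraded, while the embryonic genome begins large-scale transcription. The first wave includes retroviral elements and gene families such as Zscan4, Tdpoz, Tcstv and Usp17l, which are switched on by Dux and Obox transcription factors and are mostly silent again by the 4-cell stage. A later wave brings ribosome biogenesis, translation and splicing genes. A library from this stage therefore holds both inherited and newly made message.

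Each library held between 3759692 and 6128941 recovered reads, with 4837221 ± 686052 on average (SD, n = 16). At least 1 read was found for 18482 ± 996 genes in 15 of the embryos (range 16910 to 20200). Ctrl_LNA 48 was apart from these, with 7276 genes from 5122089 reads. When every library was thinned to the depth of the shallowest one, the counts were 6859 genes in embryo 48 and 16761 to 19942 in the others. Embryo 48 was thus as far below the rest at equal depth. Total reads and genes detected showed no relation that passed the test (Pearson r = -0.10, permutation p = 0.722; Spearman rho = 0.05, permutation p = 0.863; n = 16; adjusted over 2 correlations, p = 0.722 and 0.863). Without embryo 48 Pearson r was 0.01, and without the 2 embryos farthest from the median depth, 38 and 33, it was -0.09. Within library numbers 31 to 38 it was -0.10 and within 43 to 50 it was -0.08 (exact permutation p = 0.805 and 0.842, n = 8 each). Values are given below with and without embryo 48.

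**Figure D1:**
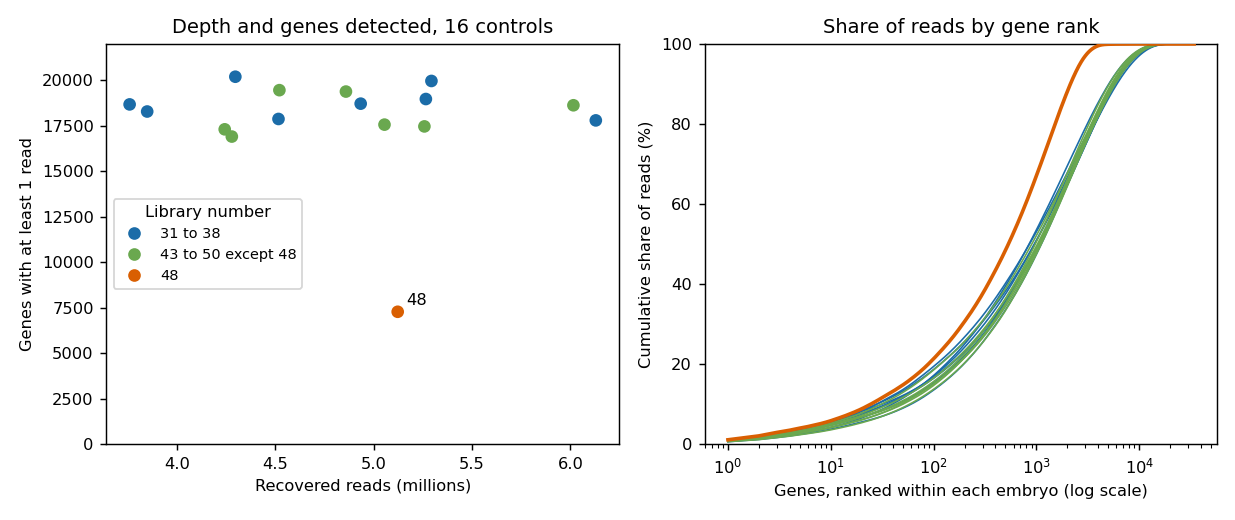
The left panel plots genes with at least 1 read against recovered reads for the 16 control embryos, and the right panel plots the cumulative share of reads (%) against the rank of genes within each embryo on a log axis, 1 line per embryo. Embryo 48 lies at 7276 genes, below the 16910 to 20200 of the others, and its line reaches 50% at 535 genes.

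Of 34223 genes in the table, 6025 had a read in every one of the 16 embryos, and 10415 in every one of the 15 without embryo 48. These 10415 genes took 95.3% ± 1.2 of the reads of the 15 embryos (SD, n = 15), and the 6025 took 81.1% ± 4.6 of the reads of the 16. At the stricter limit of 10 reads the numbers were 3701 and 7848. At the other end, 2937 genes had no read in any of the 16 embryos, and 4703 had reads in 1 embryo only of the 15. A zero in these libraries says that no read was counted, not that the gene is silent. The core was protein coding for the most part: 8505 of the 10415 genes are annotated as such, beside 597 processed pseudogenes, 405 antisense genes and 278 long intergenic RNAs. Of all 34223 genes, 19462 are protein coding, 3992 processed pseudogenes, 2109 antisense genes and 3095 long intergenic RNAs. Protein-coding genes took 91.1% ± 1.1 of reads, long intergenic RNAs 2.01% ± 0.44 and processed pseudogenes 1.69% ± 0.31 (SD, n = 16).

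Few genes stood far above the rest. The single highest gene of each embryo held 0.826% ± 0.176 of its reads, its 10 highest genes 4.86% ± 0.75 and its 1000 highest 50.9% ± 4.7 (SD, n = 16). The 100 genes with the highest mean share over the 16 embryos held 14.8% ± 1.6. It took 1007 ± 87 genes to reach 50% of the reads in the 15 embryos (range 850 to 1118) and 535 genes in embryo 48. Sorted by the mean normalised count, which is the count divided by the size factor of the library, 12 genes lay at 10000 or above and held 5.12% ± 0.79 of the reads. Another 816 genes between 1000 and 10000 held 38.3% ± 2.0, and 6109 genes between 100 and 1000 held 48.8% ± 2.0. The 7430 genes between 10 and 100 shared 7.03% ± 1.44, the 7958 between 1 and 10 shared 0.724% ± 0.287, and the 11898 below 1 shared 0.0797% ± 0.0296. Most reads thus lay in the classes between 100 and 10000.

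By reads, the 10 highest genes were the mitochondrial mt-Rnr2, mt-Cytb, mt-Co1, mt-Nd1 and mt-Nd4, a pair of pseudogenes named Gm10925 and Gm28437, and the nuclear genes Zbed3, Spin1 and Ccdc6. The mitochondrial large ribosomal RNA, mt-Rnr2, was first with 26372 ± 3420 normalised counts (range 18907 to 32050), followed by mt-Cytb, which encodes cytochrome b, with 25546 ± 8187 (SD, n = 16). The annotated mitochondrial genes took 3.15% ± 0.46 of the reads.

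Gm10925 and Gm28437, listed in the deposited table as RP23-8J15.3 and RP23-8J15.4, belong to a row of 7 pseudogenes on chromosome 1 that are copies of mitochondrial DNA. They are annotated at chr1:24613974-24614651 and chr1:24613189-24613971 (GRCm38, minus strand), and took 0.464% and 0.409% of reads. Their sequences, printed here because a read from them cannot be told from one of the mitochondrial gene, match it over their whole length. Gm10925 equals mt-Atp6, which encodes a subunit of ATP synthase, in 678 of 678 bases, and Gm28437 equals mt-Co3, a subunit of cytochrome oxidase, in 783 of 783. The first 90 bases of each, shared by copy and mitochondrial gene, come from the GENCODE M21 transcripts.
Gm10925 and mt-Atp6: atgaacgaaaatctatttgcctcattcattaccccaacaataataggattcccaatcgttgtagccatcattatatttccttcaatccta
Gm28437 and mt-Co3: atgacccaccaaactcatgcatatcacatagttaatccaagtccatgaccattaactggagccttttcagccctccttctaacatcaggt
Another copy, Gm29216, is annotated over 492 bases and differs from mt-Co1 in 6, all within the window printed. The differing bases are in capitals.
Gm29216: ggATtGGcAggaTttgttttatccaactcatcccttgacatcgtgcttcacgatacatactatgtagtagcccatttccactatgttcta
mt-Co1: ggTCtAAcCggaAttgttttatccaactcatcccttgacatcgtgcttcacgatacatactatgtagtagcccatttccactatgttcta

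The counts fell to one side of each identical pair. Gm10925 held 19225 ± 3502 normalised counts and mt-Atp6 held 1.37 ± 1.64, Gm28437 held 16787 ± 3933 and mt-Co3 27.3 ± 12.4, and Gm28661 held 10916 ± 2277 against 1.75 ± 1.33 for its equal mt-Co2 (SD, n = 16). For mt-Nd4 the order was the other way, with 12015 ± 2577 for the mitochondrial gene and 17.1 ± 8.7 for its copy Gm28439, identical over 876 bases. The pair of Gm28438 and mt-Nd3, which differ in 1 of 345 bases, was split as 1200 ± 330 and 852 ± 222. A read from an identical stretch cannot be placed by its sequence, so the members of a pair are best read as a sum. The 7 copies took 1.34% ± 0.25 of reads, and with them the mitochondrial share was 4.48% ± 0.70 (highest with 6.07% in embryo 31, n = 16). Over the 15 embryos without 48, the coefficient of variation (CV, the SD over the mean) of the 9 mitochondrial protein genes with a mean of at least 100 ran from 0.16 to 0.24. None of the 9 lay above the trend of spread on abundance, beside 3445 of all 6937 genes of that abundance. With embryo 48 the CV of mt-Cytb was 0.32, above the trend, since that embryo had 52492 normalised counts against at most 32142 in the others.

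**Figure D2:**
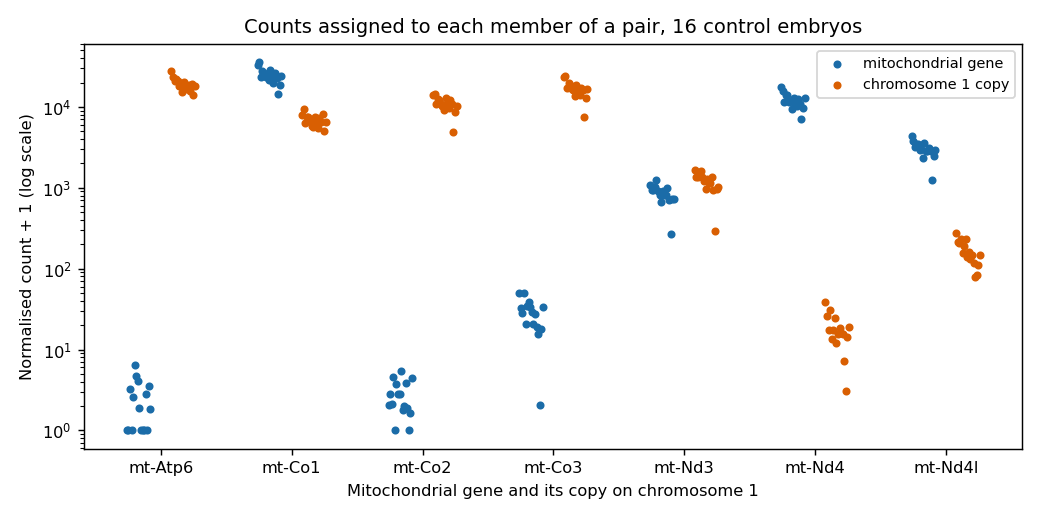
Normalised count + 1 (log axis) of 7 mitochondrial genes and of their copies on chromosome 1, with 1 point for each of the 16 control embryos. The counts of mt-Atp6, mt-Co2 and mt-Co3 lie on the chromosome 1 copy, those of mt-Nd4 and mt-Nd4l on the mitochondrial gene, and mt-Nd3 is split.

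Levels of different genes were compared as TPM, the usual measure of transcripts scaled by length and depth, computed from recovered reads and exon length. Among nuclear genes outside the chromosome 1 copies, Zbed3 was first with 6444 ± 4371 TPM (SD, n = 16). Zbed3 is a component of the subcortical maternal complex of the egg. Dppa3, a maternal factor that protects the maternal genome from demethylation, had 5321 ± 1645 TPM. The oocyte genes Omt2b, Tcl1b1, Omt2a and Spin1 had 3495 ± 748, 3031 ± 1975, 2630 ± 667 and 2506 ± 1099 TPM. Rplp0, which encodes a protein of the large ribosomal subunit, had 2609 ± 781 TPM, and Cks2, which binds cyclin-dependent kinases, 2577 ± 974 TPM. Dppa3 ran from 4386 to 10704 normalised counts in the 15 embryos and had 15390 in embryo 48, while Zbed3 ran from 4384 to 52136 and had 3768 there. The 2 genes thus differed in spread, with CVs of 0.24 and 0.69 over the 15 embryos.

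Processed pseudogenes were also among the 15 highest nuclear genes per kilobase. Gm5612 (5379 ± 2158 TPM) is 96.5% identical over 375 bases to Map1lc3b, which encodes an autophagosome protein and had 342 TPM. For Gm12617 (3008 ± 1576 TPM) no protein-coding match was found. Reads of a copy and its parent may have been divided between them, and their levels are uncertain.

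The oocyte genes as a group were still prominent at 28 h. The 52 genes of the maternal oocyte list took 2.11% ± 0.95 of reads (range 1.06% in embryo 49 to 4.07% in embryo 45, n = 16), and 50 of them had a read in every embryo without 48. Among all genes with a mean of 100 to 1000, 95.8% had a read in every one of those 15 embryos. Of the 52, 49 had a mean of at least 100, beside 6937 of all 34223 genes. Tcl1, a kinase co-activator, had 2425 ± 1531 TPM, and Oosp1, an oocyte-secreted protein, 1718 ± 779 TPM. The 8 members of the subcortical maternal complex took 0.761% ± 0.479 of reads. Zbed3 alone took 0.546%, and the others were Nlrp4f with 798 ± 636 TPM, Padi6 with 277 ± 114, Tle6 with 195 ± 72, Ooep with 151 ± 104, Nlrp5 with 114 ± 51, Khdc3 with 109 ± 85 and Nlrp2 with 49.1 ± 82.9 TPM (SD, n = 16). Among the 25 genes of message storage and decay, Btg4, the adaptor that brings the CCR4-NOT deadenylase to maternal messages, had 1074 ± 549 TPM, and the deadenylase subunits Cnot8 and Cnot7 had 465 ± 131 and 352 ± 173 TPM.

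Genes of the first embryonic wave were read in most embryos. The 37 genes of the zygotic 2-cell list took 0.734% ± 0.265 of reads (n = 16), lowest with 0.349% in embryo 48 and highest with 1.33% in embryo 32, and 32 of them had a read in every embryo without 48. Of the 37, 33 had a mean of at least 100, beside 6937 of all 34223 genes. The 95.8% given above, for detection in those 15 embryos among all genes of 100 to 1000, stands beside the 32 of 37 detected in this list. Its highest members per kilobase were Tdpoz5 with 1654 ± 727 TPM, Usp17lb with 1489 ± 693, Tcstv3 with 1184 ± 741 and Tdpoz4 with 819 ± 445. Among the 30 regulators of genome activation, Klf17 had 1510 ± 514 TPM, Obox6 1233 ± 608, Obox5 991 ± 692 and Obox8 690 ± 311 (SD, n = 16). These families have near-identical members, between which reads can be divided. Genes of the groups named above for the later wave were read as well. With 1 time point, inherited and newly made messages of these genes cannot be told apart. The 47 ribosome biogenesis genes took 0.954% ± 0.321 of reads, 89 ribosomal protein genes 1.28% ± 0.38, 43 translation factors 1.32% ± 0.20 and 60 splicing genes 0.921% ± 0.182. Npm1, a nucleolar protein of ribosome assembly, had 1075 ± 297 TPM.

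Several other groups took small shares of reads. Means below 10 are common in the table: of all 34223 genes, 11898 lay below 1 and 7958 between 1 and 10. The 25 genes of pluripotency and early lineages took 0.0803% ± 0.0086 of reads, and 9 of them had a mean below 10. Pou5f1 had 215 ± 161 TPM and Fgf4 93.8 ± 109, while Sox2 had a mean of 11.7 normalised counts. The 31 interferon response genes took 0.0404% ± 0.0133 and 14 had a mean below 10. H3f3b and H3f3a, the genes of histone H3.3, had 1184 ± 506 and 465 ± 105 TPM, and reads of the injected H3.3-GFP message could be counted with them.

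The libraries were checked against markers of other cell types. A mean below 10 says little by itself, since 11898 of all 34223 genes lay below 1 and 7958 between 1 and 10. Of 12 sperm genes, 9 had a mean below 10, Prm1 had a mean of 0.245 and Tnp2 was at 0 in every embryo. The higher members of that list were Odf2 and Ldhc, with 1146 and 116 normalised counts on average. Of 9 blood genes 6 had a mean below 10, Hbb-bs had a mean of 0.189 and Hbb-bt was at 0 in all, while Hba-a1 had 208 normalised counts on average and a read in 16 of 16 embryos. Of 8 genes of epithelium, vessel and connective tissue, Epcam (174 TPM) and Pecam1 (14.8 TPM) were above a mean of 10, and Dcn, Cdh5 and Lum were at 0. Of 16 cumulus and granulosa genes 12 had a mean below 10, Foxl2, Fshr and Inhbb were at 0 in every control embryo, and the receptor gene Amhr2 was at 172 to 911 normalised counts in the 16 embryos. The summed share of that list was highest in embryo 34, described below.

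Spread between embryos was large against counting error. Over the 16 embryos the median CV of genes with a mean of at least 100 was 0.588, and without embryo 48 it was 0.478. It was 0.444 within library numbers 31 to 38. By abundance class, the median CV over the 15 embryos was 0.866 for genes between 10 and 100, 0.494 between 100 and 1000, 0.365 between 1000 and 10000 and 0.181 for the 12 genes at 10000 or above. Counting error alone would give 0.166, 0.0579, 0.0238 and 0.00707 at the median of those classes. These libraries were amplified by 20 cycles without molecular identifiers, so the counting figure is a lower limit on technical spread, and biological and technical parts cannot be told apart.

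**Figure D3:**
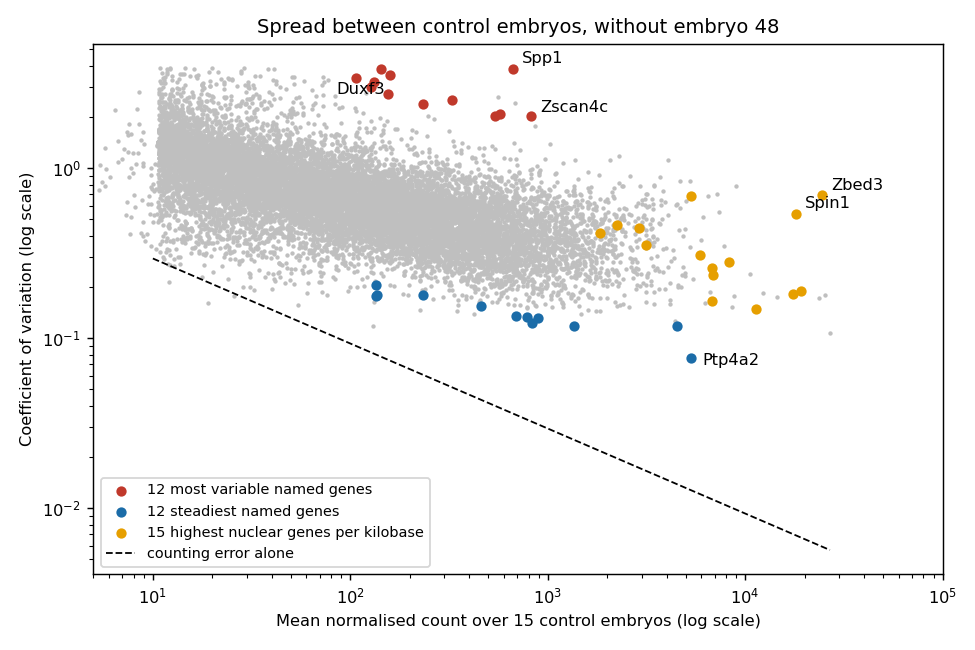
CV over 15 control embryos against the mean normalised count over the same embryos (both log axes), with 1 grey point per gene with a mean of at least 10 over 16 embryos. Red points are the 12 most variable and blue points the 12 steadiest named genes for their abundance, orange points the 15 highest nuclear genes per kilobase, and the dashed line is the CV that counting alone would give. The orange points include the chromosome 1 copies Gm10925, Gm28437, Gm28661 and Gm29216, whose reads may be mitochondrial. Ptp4a2 lies lowest among the marked genes with 0.08, and Spp1 highest with 3.83.

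The steadiest named genes for their abundance were led by Ptp4a2, which encodes a phosphatase anchored to membranes by prenylation. Ptp4a2 had a lowest value of 4700, a median of 5212 and a highest value of 5992 normalised counts over the 15 embryos, a CV of 0.08. The 15 values thus lay within a narrow band. In embryo 48 the same gene had 46875 normalised counts, so its CV over 16 embryos was 1.31. In the Val_LNA embryos it had a lowest value of 294, a median of 2026 and a highest value of 5750, a CV of 0.69, above the trend of that group. The low spread of the 15 controls was thus not seen in Val_LNA; the difference was not tested.

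Eif5a, a translation factor that carries hypusine, ranged from 3824 to 5681 with a median of 4423 in the 15 controls (CV 0.12), and had 6053 in embryo 48. Gle1, an mRNA export factor of the nuclear pore, ranged from 1053 to 1771 (CV 0.12). Polr1d, a subunit shared by RNA polymerases I and III, ranged from 691.5 to 1016 (CV 0.12). The other steady genes were Nsmce2, a SUMO ligase of the SMC5/6 complex, Ppp4r2, a regulatory subunit of phosphatase 4, Rnf122, Nacc1, the RNA-binding Pcbp2, the actin-related Actr2 and the pseudogenes Rps2-ps13 and Amd-ps3, with CVs of 0.13 to 0.21. Of the 12 genes, 11 lay below the trend of spread in Val_LNA, with Ptp4a2 as the exception. The share of all genes below that trend is not given here. Embryo 48 had 0 for Nacc1 and 3284 for Nsmce2, which lay between 442 and 853 elsewhere.

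The most variable named genes mostly owed their spread to 2 embryos, 32 and 34. In embryo 32 the 6 genes annotated in the Zscan4 family summed to 27321 normalised counts. The next was embryo 34 with 5451, the other embryos ran from 674 to 2978, and embryo 48 had 156. Zscan4 proteins act at telomeres and mark the 2-cell programme, and their genes are near copies, so the sum is safer than single members. Zscan4c alone had 6722 in embryo 32, 1366 in embryo 34, 150 to 617 in 13 embryos and 48.3 in embryo 48. Duxf3, the transcription factor gene that activates the family, had 2195 in embryo 32 and 131 in embryo 34, 0 to 15.4 in the other 13, and 0 in embryo 48. The related gene listed as Duxf1 had 1423 and 95.4 in embryos 32 and 34 and at most 35.6 elsewhere. High Dux-family and high Zscan4 counts were thus found in the same embryo.

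Zscan4d had 5847 in embryo 32, 1868 in embryo 34, 228 to 1168 in the other 13 and 24.2 in embryo 48. The promoters of Zscan4c and Zscan4d are printed to show how alike the 2 loci are. Both come from RefSeq on GRCm38.p6, cover 250 bases before and 50 after the gene start, and lie at chr7:11005495-11005794 (plus strand) and chr7:11166099-11166398 (minus strand). They are identical in 281 of 289 aligned bases. Capitals mark matches to 3 motifs: TATAAA, bound by the basal machinery, CCAAT, bound by NF-Y, and CAAGGTCA, the core read by Nr5a2 and Esrrb and found here on the reverse strand as TGACCTTG. They were searched on both strands. The 3 motifs do not overlap in these promoters.
Zscan4c: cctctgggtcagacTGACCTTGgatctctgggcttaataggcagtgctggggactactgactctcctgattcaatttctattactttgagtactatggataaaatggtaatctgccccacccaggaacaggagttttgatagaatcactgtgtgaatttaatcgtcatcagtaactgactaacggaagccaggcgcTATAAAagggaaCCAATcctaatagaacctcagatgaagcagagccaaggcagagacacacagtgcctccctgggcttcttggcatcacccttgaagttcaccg
Zscan4d: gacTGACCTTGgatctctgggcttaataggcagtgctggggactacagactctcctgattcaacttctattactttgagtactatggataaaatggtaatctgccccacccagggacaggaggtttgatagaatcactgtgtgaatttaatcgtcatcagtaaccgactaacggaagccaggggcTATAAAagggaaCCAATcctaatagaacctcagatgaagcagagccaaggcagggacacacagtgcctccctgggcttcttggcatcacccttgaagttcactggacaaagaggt
Among the 27025 promoters of the same length in that table, 14.2% hold TATAAA and 1.52% CAAGGTCA on either strand, and 10275 promoters hold CCAAT. A match describes letters in this window and not a bound site.

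Other genes were high in embryo 32 alone. Fgf15, a secreted growth factor, had 1638 there and 155 in the next embryo, Dusp4, a phosphatase of MAP kinases, 1495 and 93.5, and Cyp26a1, which degrades retinoic acid, 606 and 7.26. Counting genes with at least 100 normalised counts that exceeded 10 times the next embryo plus 1, embryo 32 had 71, embryo 34 had 13, embryo 48 had 114 and the other 13 had 0. The 71 genes took 0.620% of the reads of embryo 32. The zygotic 2-cell share was highest of the 15 in embryo 32 (1.33%). That list includes Duxf3, so its share partly restates the counts above and is not a separate trait. Embryo 32 was the lowest of the 15 in ribosome biogenesis (0.396%). Its median correlation with the other controls was 0.582, against 0.679 to 0.804 in the 14 others without 48. In the Val_LNA group the Zscan4 sum was highest in Val_LNA 8, with 18950, where Duxf3 had its highest value of that group, 462. The next sums were 14124 in Val_LNA 2 and 11098 in Val_LNA 14, with 53.2 and 116 for Duxf3, and the other 13 embryos had sums of 637 to 5805 and at most 39.9 for Duxf3.

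Embryo 34 held a different set. Spp1, which encodes the secreted protein osteopontin, had 9933 normalised counts there, 59.6 in embryo 32, 29.7 in embryo 43 and at most 1.59 in the remaining 13. Hsd3b1, an enzyme of steroid synthesis, had 2124 in embryo 34 and at most 8.72 elsewhere. Cyp11a1, the enzyme that makes pregnenolone from cholesterol, had 522 in embryo 34, 50.5 in embryo 32 and at most 23.5 in others. The inhibin subunit genes Inhba and Inha had 122 and 43.2 in embryo 34, and Inha was at 0 in the other 15. Akr1cl had 1676 there and at most 126 elsewhere.

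Hsd3b1, Cyp11a1, Inhba and Inha are members of the 16-gene cumulus and granulosa list, whose summed share was 0.0676% in embryo 34 and 0.00457% to 0.0238% in the other 15. Of its defining genes, Foxl2 and Fshr were at 0 in embryo 34 as in the rest, and Cyp19a1 had 20.7 there against 0 to 43.3 elsewhere. Cyp19a1 was highest in embryo 36, as was Star, with 94.8 there and 11.7 in embryo 34. Amhr2 was not high in embryo 34 either, with 349 beside a median of 539 over the 15 embryos. Whether RNA of follicle cells reached that library was not tested. In Val_LNA, embryo 3 had 3230 for Spp1, 1677 for Hsd3b1, 225 for Inhba and 114 for Inha, and the other 15 had at most 39.9, 14.6, 0 and 0. Cyp11a1 and Akr1cl did not stand out there to the same degree: Val_LNA 3 had 48.4 for Cyp11a1, against at most 17.9 in the other 15, and 449 for Akr1cl, against up to 374.

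**Figure D4:**
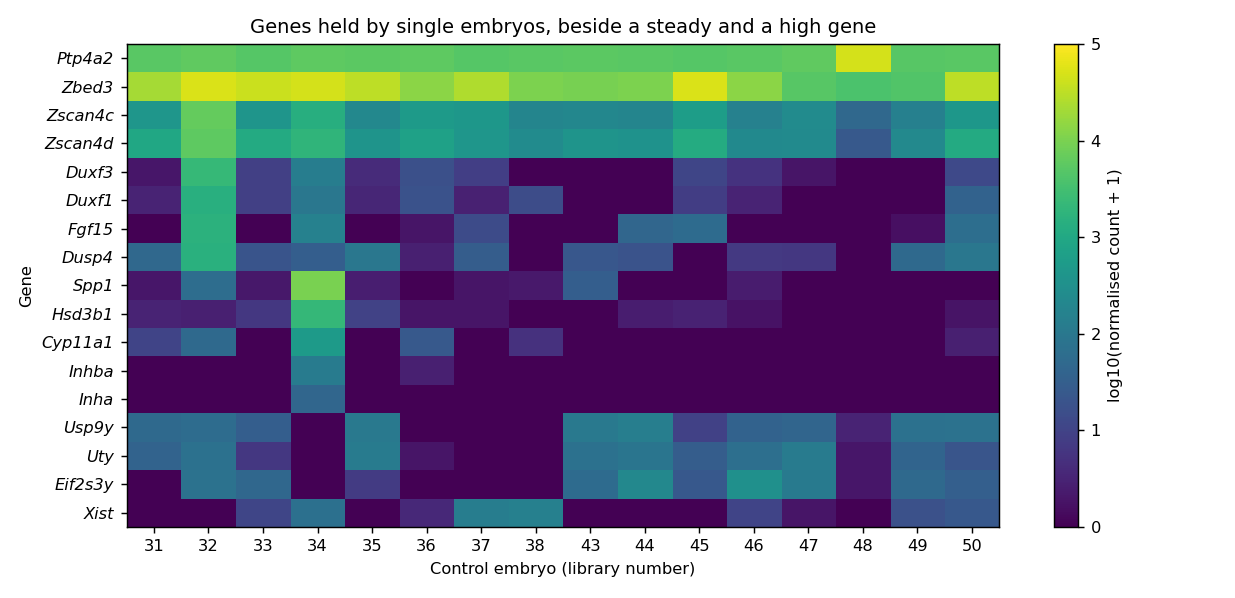
Normalised counts on a log10(count + 1) colour scale for 17 genes (rows) in the 16 control embryos (columns, by library number). Zscan4, Dux, Fgf15 and Dusp4 are brightest in embryo 32, Spp1, Hsd3b1, Cyp11a1, Inhba and Inha in embryo 34, and Ptp4a2 is even in colour except in embryo 48.

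The 12 most variable named genes also included Zscan4a, Zscan4b, Zscan4e and Zscan4f. Their CVs over 15 embryos ran from 2.02 for Zscan4c to 3.83 for Spp1. Without embryos 32, 34 and 48, an alternative chosen after the values were seen, the CV was 0.48 for Zscan4c, 0.54 for Zscan4b, 1.10 for Duxf3 and 1.43 for Hsd3b1. For Spp1 it stayed at 2.84, with a highest value of 29.7 among those 13. In the Val_LNA embryos 12 of the 12 lay above that group's trend, which was fitted to genes with a control mean of at least 100. Hsd3b1, Duxf3, Duxf1, Fgf15 and Dusp4 reached that mean only through embryo 32 or 34. Their medians over the 15 controls were 0.91, 4.36, 2.38, 0.63 and 21.6. The count is thus a description and no independent check of the choice. In Val_LNA the means of Fgf15, Duxf1 and Dusp4 were 22.6, 34.3 and 38.5. The 12 are not independent, since the Zscan4 genes are near copies and Duxf1 is related to Duxf3. Spp1 and Hsd3b1 were high there in Val_LNA 3 alone, with medians of 0 and 2.15 over the group. Over all 6937 genes with a mean of at least 100, the deviation from the trend in the 15 controls and in Val_LNA had a Spearman rho of 0.58, given as a description over genes that share their libraries. Of the 500 genes with the highest deviation in controls, 452 lay above the trend in Val_LNA, and of the 500 lowest, 448 lay below. The share of all genes above the Val_LNA trend is not given here. In the 15 controls 3445 of the 6937 lay above their trend.

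Among named genes read in 4 to 12 of the 16 embryos, 8 had the highest means. Spp1, Duxf3 and Hsd3b1 owed theirs to embryos 32 or 34. For the other 5 the highest value was in embryo 48: Mxi1, a partner of Max, had 2218 there and 0 to 125 in the 15 others, Ripk3, a kinase of necroptosis, 1633 and 0 to 354, Ifngr1, a receptor chain for interferon gamma, 1631 and 0 to 121, Nlrp6 1338 and 0 to 794, and Plekhf1 1300 and 0 to 217.

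Embryo 48 differed from the rest in a patchy way and not by a uniform loss. Among genes with a mean of 100 to 1000 over the 16, 33.6% had no read in embryo 48, against 0.0982% to 1.16% in the others. In the class of 1000 to 10000 the shares were 1.72% and 0%. With classes formed from the other 15 embryos, 3693 of 6111 genes between 100 and 1000 were more than 4-fold lower in embryo 48 than the median of the others, and 760 were more than 4-fold higher. Ccdc6 had 58073 normalised counts in embryo 48 and 6420 to 12606 elsewhere, and Golt1b had 13318 and at most 1148. Its 100 highest genes held 21.3% of reads, against 13.5% to 19.4%. Within the subcortical complex, Padi6 and Tle6 each had 1.05 in embryo 48, a single read, while Nlrp2 had 2303 against 65.2 to 349 in the others. The mitochondrial genes alone took 2.55% of its reads, inside the range of 2.41% to 4.21% of the other embryos. The 7 copies on chromosome 1 took 0.744%, against 1.04% to 1.86%, and with them the sum was 3.298%, below the 3.46% to 6.07% of the other 15. What sets that embryo apart was not tested.

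The leading axis of variation followed that embryo. In a principal component analysis of log2(normalised count + 1) over 12839 genes, the leading component held 48.6% of the variance with embryo 48, which scored 517 while the others lay between -76.5 and 5.05. Without it the leading component held 29.6%. On that component embryos 32, 34, 33, 31 and 35 of the run 31 to 38 and embryos 45 and 50 of the other run scored from 26.0 to 132. Embryo 38 and embryos 43, 44, 46, 47 and 49 scored from -107 to -62.6. Embryos 36 and 37 of the run 31 to 38 lay between, with -8.86 and -1.36. Most of the run 31 to 38 was thus at the higher end and most of 43 to 50 at the lower. Whether the component goes with the runs was not tested. Total reads had r = -0.22 with the component and genes detected r = 0.73 (n = 15), given as descriptions.

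Oocyte messages and ribosome biogenesis messages lay at opposite ends of that component. Of 49 maternal oocyte genes with a mean of at least 100, 48 had a positive correlation with it, and of 47 ribosome biogenesis genes 45 had a negative one, beside 51.8% positive among all 6937 such genes. These genes entered the component themselves, so the counts are a description. Of 81 ribosomal protein genes 79 were negative, of 54 splicing genes 45 and of 31 proteasome genes 25. All 8 members of the subcortical complex were positive. Single genes show the scale. Wee2, an oocyte kinase that inhibits CDK1, had a lowest value of 949, a median of 3603 and a highest value of 12898 over the 15 embryos. Zbed3 ran from 4384 through 21451 to 52136, and Spin1 from 6788 through 16080 to 35561. Npm1 ran from 2997 through 4717 to 5760, and Nop2, an RNA methyltransferase of ribosome assembly, from 689 through 2192 to 3269.

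The regulators of genome activation lay at both ends, with 11 positive and 16 negative of 27, and of 6 pluripotency and early lineage genes 1 was positive and 5 negative. Pou5f1 (r = 0.97), which is on both lists, and Obox5 (0.84) went with the oocyte genes, and Obox8 (-0.90) and Obox6 (-0.87) with ribosome biogenesis. The genes with the highest weights at the oocyte end, by the rule for named genes, were Stat6, Lrrc49, Ehd3, Ldlrad3 and Hmox1, and at the other end Trip13, Tuft1, Mcfd2, Lsg1 and Gab1. Each was near 0 in some embryos and well above it in others: Trip13, a chromosome-axis ATPase, ran from 0 to 666 and Lsg1, a GTPase of ribosome export, from 2.71 to 1534. Stat6 ran from 0 to 343.

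**Figure D5:**
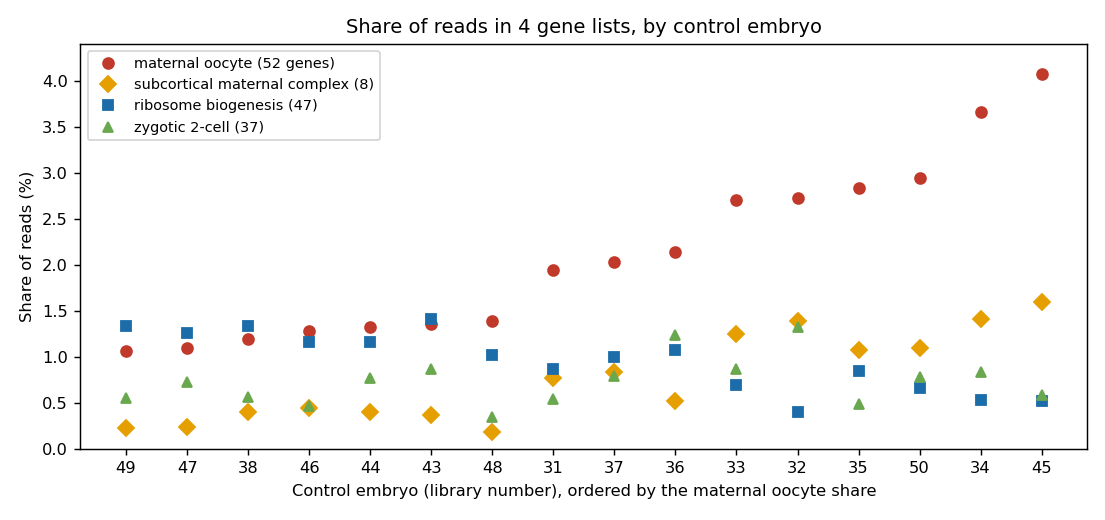
Share of reads (%) of 4 gene lists in each of the 16 control embryos, ordered from left to right by the share of the maternal oocyte list, so the order of that list is set by the plot. Ribosome biogenesis genes lie at 1.16% to 1.41% in the 6 embryos on the left and at 0.396% to 0.845% in the 6 on the right, and the zygotic 2-cell list has its highest value, 1.33%, in embryo 32.

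In embryo 45 the oocyte list took 4.07% of reads and ribosome biogenesis 0.515%, and in embryo 49 they took 1.06% and 1.33%. Across the 15 embryos the mean centred log2 values of the 2 lists had a Pearson r of -0.82 and a Spearman rho of -0.89. With embryo 48 included Pearson r was 0.15, since that embryo was low in both lists on this log2 scale. As a share of reads its ribosome biogenesis genes were not low, with 1.02% beside 0.954% ± 0.321 over the 16 embryos. Without the 2 embryos farthest from the median, 48 and 45, r was -0.81. Within library numbers 31 to 38 it was -0.68 (n = 8), and within 43 to 50 without embryo 48 it was -0.97 (n = 7). This pair of lists was chosen after the component had been seen, so the values describe it and no p-value is given.

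The maternal oocyte list was also set against the zygotic 2-cell list. Their mean centred log2 values rose together over the 16 embryos (Pearson r = 0.93, permutation p = 5.0e-05, adjusted 0.0001; Spearman rho = 0.76, permutation p = 0.00106, adjusted 0.0021). Without embryo 48 Pearson r was 0.73 (permutation p = 0.00231, adjusted 0.00462, n = 15), and without the 2 embryos farthest from the median it was 0.79 (permutation p = 0.00153, n = 14). Within library numbers 31 to 38 r was 0.71 (exact permutation p = 0.0396, adjusted 0.0793, n = 8), within 43 to 50 it was 0.95 (exact permutation p = 0.000918, n = 8), and in that run without embryo 48 it was 0.72 (exact permutation p = 0.055, n = 7). Measured as shares of reads the relation did not pass (Pearson r = 0.25, permutation p = 0.359; Spearman rho = 0.34, permutation p = 0.205; n = 16). The mean of log2 values weights each gene alike, while a share is set by the highest genes.

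The runs of library numbers were compared within the controls, since the labels do not say what the runs are. With limma on log2(normalised count + 1) and Benjamini-Hochberg adjustment, 0 of 12839 genes (0%) passed an adjusted p of 0.05 between numbers 43 to 50 and 31 to 38, and 1171 had an unadjusted p under 0.05. EdgeR on recovered reads called 0 (844 unadjusted) and DESeq2 called 28, of which 27 were higher in 43 to 50 and 1 lower. Without embryo 48 limma called 0 (1423 unadjusted) and edgeR 0 (1049 unadjusted), while DESeq2 called 86, of which 66 were higher and 20 lower. Without embryo 50 limma called 2. The median log2 difference over all tested genes was -0.51 with embryo 48 and -0.08 without it. The smallest p in limma belonged to Faah, a hydrolase of fatty acid amides, with 55.4 ± 41.3 normalised counts in 31 to 38 and 4.05 ± 8.21 in 43 to 50 (SD, n = 8 each; limma adjusted p = 0.345). Next among genes with a symbol were Abhd1 (46.8 ± 23.0 and 5.55 ± 8.24), Dgat2, which makes triglycerides (17.6 ± 33.3 and 169 ± 107) and Rffl (237 ± 132 and 917 ± 545), all with limma adjusted p = 0.476.

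The summed shares of 25 gene lists were compared between the runs as well, in a set of tests added after the data were seen. None passed after adjustment over the 25 (exact permutation tests, two-sided). The cell cycle list had 1.29% ± 0.06 in 31 to 38 and 1.45% ± 0.13 in 43 to 50 (exact permutation p = 0.00544, adjusted 0.068; adjusted 0.136 without embryo 48). The p53 response list had 0.219% ± 0.035 and 0.173% ± 0.037 (exact permutation p = 0.00435, adjusted 0.068; adjusted 0.136 without embryo 48). For the maternal oocyte list the values were 2.40% ± 0.74 and 1.81% ± 1.09 (exact permutation p = 0.219).

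The distance of each embryo to the others of its group was compared between Ctrl_LNA and Val_LNA, and no difference passed the test over all embryos. Taking the median over the other embryos of the group of 1 minus the Pearson correlation of log2 values, the mean distance was 0.268 ± 0.070 in Ctrl_LNA and 0.268 ± 0.038 in Val_LNA (SD, n = 16 each), a difference of 0.0005 (permutation p = 0.981). Without embryo 48 the control mean was 0.248 ± 0.036 and the difference -0.019 (permutation p = 0.157). In the lower runs, 31 to 38 against 1 to 8, the control mean was lower, with 0.236 ± 0.044 and 0.291 ± 0.020 (exact permutation p = 0.00699, n = 8 each). The labels do not link these runs to each other. In the upper runs, 43 to 50 against 13 to 20, the means were 0.263 ± 0.092 and 0.242 ± 0.069 (exact permutation p = 0.587, n = 8 each), and without embryo 48 the control mean was 0.228 ± 0.041 (exact permutation p = 0.793). The difference between the lower and the upper runs was not itself tested. Distances within a group rest on shared pairs of embryos, and controls 35 and 43 both had 0.228 over all embryos. The distances are thus not independent, and the p-values are not adjusted over the settings. No conclusion on the spread of the groups is drawn from them.

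Genes of the sex chromosomes were read embryo by embryo. Usp9y, a deubiquitinase gene on the Y chromosome, had 0 in embryos 34, 36, 37 and 38, 2.1 in embryo 48 and 8.07 to 135 in the other 11. Uty, a histone demethylase gene on the Y, was at most 1.05 in the same 5 embryos and 5.52 to 119 in the other 11. Other Y genes did not all follow these embryos. Ddx3y had 304 in embryo 48 and at most 31.5 elsewhere. Eif2s3y had 0 in embryos 31, 34, 36, 37 and 38, 1.05 in embryo 48 and 6.34 to 319 in the rest. Kdm5d had 0 in embryos 34, 35 and 38 and at most 141 elsewhere. Xist, the RNA that silences an X chromosome, was highest in embryos 38, 37 and 34, with 149, 133 and 69.3, had 2.71 in embryo 36 and ran from 0 to 22.9 in the remaining 12. Levels this low rest on few reads, and 0 does not show that a chromosome is absent.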

How the data were processed

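RNA of single embryos was purified on beads, its polyadenylated part reverse transcribed with template switching, amplified by 20 cycles and tagmented, per the labels' protocols, which name no molecular identifiers. The submitters' processing notes name Bowtie2, STAR, SAMtools, DESeq2 and mm10, with no versions. The deposited values are a signal, gene counts divided by a size factor per library, per the file headers. Whole reads were recovered from 100% of 1095136 values (largest distance from a whole number 0.00855). No column lacked a sample.

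Shares, detection and TPM use recovered reads, with exon lengths from GENCODE M21 for 34179 of 34223 genes. Spread was the CV, with a lowess trend of log2 CV on log2 mean for genes with a mean of at least 100. The runs were compared with limma 3.58.1 (trend, robust) on log2(value + 1) for 12839 genes with at least 10 in at least 8 embryos, Benjamini-Hochberg adjusted, with edgeR 4.0.16 and DESeq2 1.42.0 on recovered reads as alternatives (R 4.3.3). Other tests were two-sided permutation tests over embryos (100000 resamples, or exact), with scipy 1.17.1 in Python 3.11.15. Methods were tested on simulated data.

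Members and lists were chosen with earlier results of these data known. Named genes were the 15 highest nuclear genes per kilobase (chromosome 1 copies included), the 10 highest by reads, the 12 most and 12 least variable for their level, up to 4 per list, 8 genes read in 4 to 12 embryos, 5 by p between runs and 5 at each end of the component. Oosp1, Dppa2, Dppa4, Obox1, Zscan4d, Cyp26a1 and Golt1b were chosen after their values were seen. Depth was 3759692 to 6128941 reads per embryo. A result on a withheld item is not reported here.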

Additional observations from a re-analysis of the deposited data

How the results depend on the processing

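The number of genes read in every embryo was 6025, and became 3701 at 10 reads and 11666 within library numbers 31 to 38. Leaving out 1 embryo at a time gave 6031 to 10415, the highest without embryo 48. The share of the 100 highest genes was 14.8%, 12.3% when ranked per kilobase and 12.8% without mitochondrially encoded genes. The median CV was 0.588, and became 0.507 as a scaled median absolute deviation over the median, 0.755 for a mean of at least 10, 0.452 for at least 1000, 0.444 within 31 to 38, 0.639 within 43 to 50 and 0.437 without embryos 32, 34 and 48. Leaving out 1 embryo at a time gave 0.478 to 0.604. Between the runs DESeq2 called 28 genes, and 86 without embryo 48, where limma called 0, and leaving out 1 embryo at a time gave 0 to 2 in limma. Centring each embryo on its median gene, which shifts all genes of an embryo alike, set the median difference between runs to 0.40 in place of -0.51, and limma again called 0 genes. The difference in distance between the groups, 0.0005, turned to -0.0194 without embryo 48, -0.0548 in the lower runs and -0.0133 in the upper runs without embryo 48. The correlation of the oocyte and zygotic lists, 0.93, fell below the adjusted threshold within 31 to 38 (0.71), within 43 to 50 without embryo 48 (0.72) and as shares of reads (0.25). That of depth and genes detected, -0.10, turned to 0.011 without embryo 48 and to 0.25 within 43 to 50 without it. The leading component held 48.6% of variance, 29.6% without embryo 48 and 67.1% over genes with a mean of at least 100. The alternatives without embryos 32, 34 and 48, DESeq2 without embryo 48 and the upper runs without it were chosen after seeing the data, and the cause of these changes was not tested. No paired analysis was possible because the groups share no replicate numbers. Depth limits what a 0 shows, and intervals from counting leave out amplification.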

Other observations

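The 53 cell cycle genes took 1.37% ± 0.13 of reads (highest with 1.66% in embryo 48, n = 16), and over the 15 embryos without 48, 27 of the 49 with a mean of at least 100 lay above the trend of spread on abundance, beside 3445 of all 6937 genes. Ccnb1, the mitotic cyclin B1, had 1353 ± 225 TPM. The 27 heat shock and endoplasmic reticulum genes took 0.661% ± 0.099, with the chaperone gene Hsp90ab1 at 1028 ± 219 TPM. The 26 genes of the p53 response took 0.196% ± 0.042, lowest in embryo 48 with 0.107%, and 10 of 15 lay above the trend, with a median CV of 0.521 beside 0.479 over all genes. Of 67 replication-dependent histone genes, whose messages mostly lack a poly(A) tail, 57 had a mean below 10. Among all 34223 genes, 11898 lay below 1 and 7958 between 1 and 10. The Y-linked gene Ddx3y had 304 normalised counts in embryo 48 and at most 31.5 in the others, while Usp9y and Uty had 2.1 and 1.05 there.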
